A study of Mus musculus with 9 samples.

Results

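The genes described here carry glucose into the cell, break it down to pyruvate and move lactate across the plasma membrane. They were chosen as a list of symbols, by their place in the pathway. All 31 symbols were in the deposited table of 22527 symbols, each on a single line: 3 glucose transporters, 3 hexokinases, Gpi1, 3 phosphofructokinases, 4 bifunctional Pfkfb enzymes, 2 aldolases, Tpi1, Gapdh, Pgk1, 3 genes of the phosphoglycerate mutase family, 3 enolases, 2 pyruvate kinase genes, 2 lactate dehydrogenase subunits and 2 lactate transporters. Levels were FPKM (fragments per kilobase of transcript and M mapped reads), which are scaled by transcript length, so that levels of different genes can be set side by side. A gene was tested when it reached 1 FPKM in at least 3 of the 9 libraries. This left 27 of the 31 genes among 10374 tested genes, and Hk3, Aldoc, Pklr and Slc16a3 were too low to be tested.

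The libraries hold ribosome-bound RNA from 3 fat depots of C57BL/6 mice at an age of 8 weeks, with 3 libraries each and no treatment named. BAT is brown fat, iWAT is the inguinal white fat under the skin, and eWAT is the epididymal white fat of the abdomen. Ribosomes were taken from homogenates with an antibody against GFP. All samples are labelled wild type, the labels do not say which cells carried GFP, and the name of the table refers to adiponectin, a protein secreted by fat cells. Nothing in the labels says whether replicates were separate animals, so p-values measure the spread between these libraries, which may be technical. Values for 1 gene in such a pool reflect both how many cells were captured and how much each translated, which cannot be told apart.

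Glycolysis splits glucose into pyruvate through a chain of cytosolic enzymes and yields ATP and NADH. Its flux is set mainly at glucose uptake, at hexokinase, at phosphofructokinase and at pyruvate kinase. Most steps have several isoenzymes from separate genes, whose products differ in kinetics, in regulation and in the tissues that use them. Brown fat takes up glucose avidly when it is stimulated by cold or insulin, and it oxidizes pyruvate, releases lactate or draws glycerol phosphate for triglycerides. White fat takes up glucose mainly under insulin and uses it for the glycerol backbone of stored fat and for lactate.

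Ucp1, the uncoupling protein of brown fat, separated BAT from both white depots and overlapped between iWAT and eWAT. It was at 2434 to 3054 FPKM in the BAT libraries and at 0.630 to 3.38 FPKM in the 6 white fat libraries. BAT replicate 3, whose tissue field names the inguinal depot while its title and source name brown fat, had the highest of these values. Depth was estimated from the single-read steps of low values as 11.1 to 21.3 M reads in BAT, 2.92 to 4.65 M in iWAT, and 16.0, 4.46 and 4.61 M in eWAT 1, 2 and 3. BAT was deeper than iWAT in every library, so depth and depot cannot be told apart in that comparison. The summed level of 15 skeletal muscle markers was 110 to 210 FPKM in BAT, 1878 to 2562 in iWAT, and 241, 1349 and 1141 in eWAT 1, 2 and 3. The summed level of 8 epithelial markers was 26.0 to 50.5 in BAT, 162 to 437 in iWAT, and 64.9, 217 and 193 in eWAT. Sums of the erythroid, macrophage and endothelial lists did not pass 15.9 FPKM in any library.

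Most of the pathway stood higher in brown fat. The 31 genes together held 1.11% ± 0.0836 (SD, n = 3) of the summed FPKM of a BAT library, against 0.628% ± 0.0677 in iWAT and 0.501% ± 0.0727 in eWAT. Of the 27 tested genes, 17 stood higher in BAT than in iWAT and 7 stood lower, at an adjusted p under 0.05 in limma's moderated test with Benjamini-Hochberg adjustment over all 10374 genes. Over all tested genes, 34.5% were called higher and 22.9% lower in that comparison (57.5% in either direction). Against eWAT, 14 of the 27 were higher in BAT and 2 were lower, where 20.2% of all tested genes were called higher and 13.5% lower (33.7% in either direction). The BAT and iWAT values did not overlap for 25 of the 27 (65.7% of all tested genes), and the BAT and eWAT values for 18 (54.6%). Of the 27 genes, 12 were called higher in BAT than in both white depots (19.3% of all tested genes) and 2 lower (8.98%). The median difference over the 27 genes, on the log2(FPKM + 1) scale used for all differences here, was 1.03 for BAT minus iWAT and 1.09 for BAT minus eWAT. Over all tested genes it was 0.23 and -0.02. Another scaling shifted the first of these, from 0.23 to 0.13 with median-ratio scaling and to 0.04 with quantile normalization. Under quantile normalization 13 of the 27 genes were called higher and 7 lower in BAT than in iWAT, and 2936 and 2851 of all genes, against 3583 and 2378 without it. The 2 comparisons share the BAT libraries and are not independent.

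**Figure D1:**
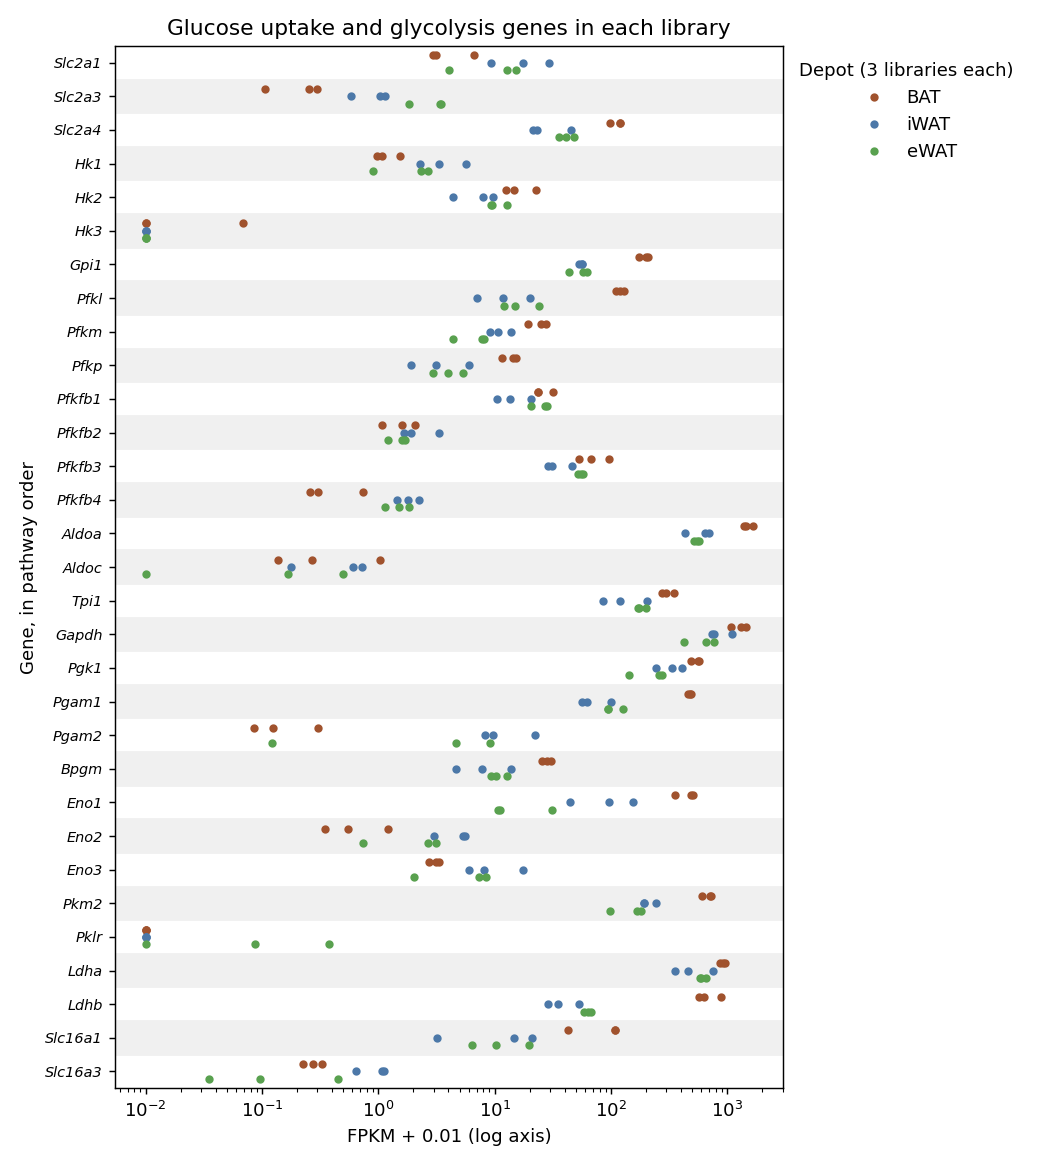
Level of each of the 31 genes in each library, as FPKM + 0.01 on a log axis, in pathway order, with 1 point per library (BAT, iWAT and eWAT, 3 each). BAT points stand to the right for most genes, from Slc2a4 to Slc16a1, and to the left for Slc2a1, Slc2a3, Hk1, Pfkfb4, Pgam2, Eno2 and Eno3.

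**Figure D2:**
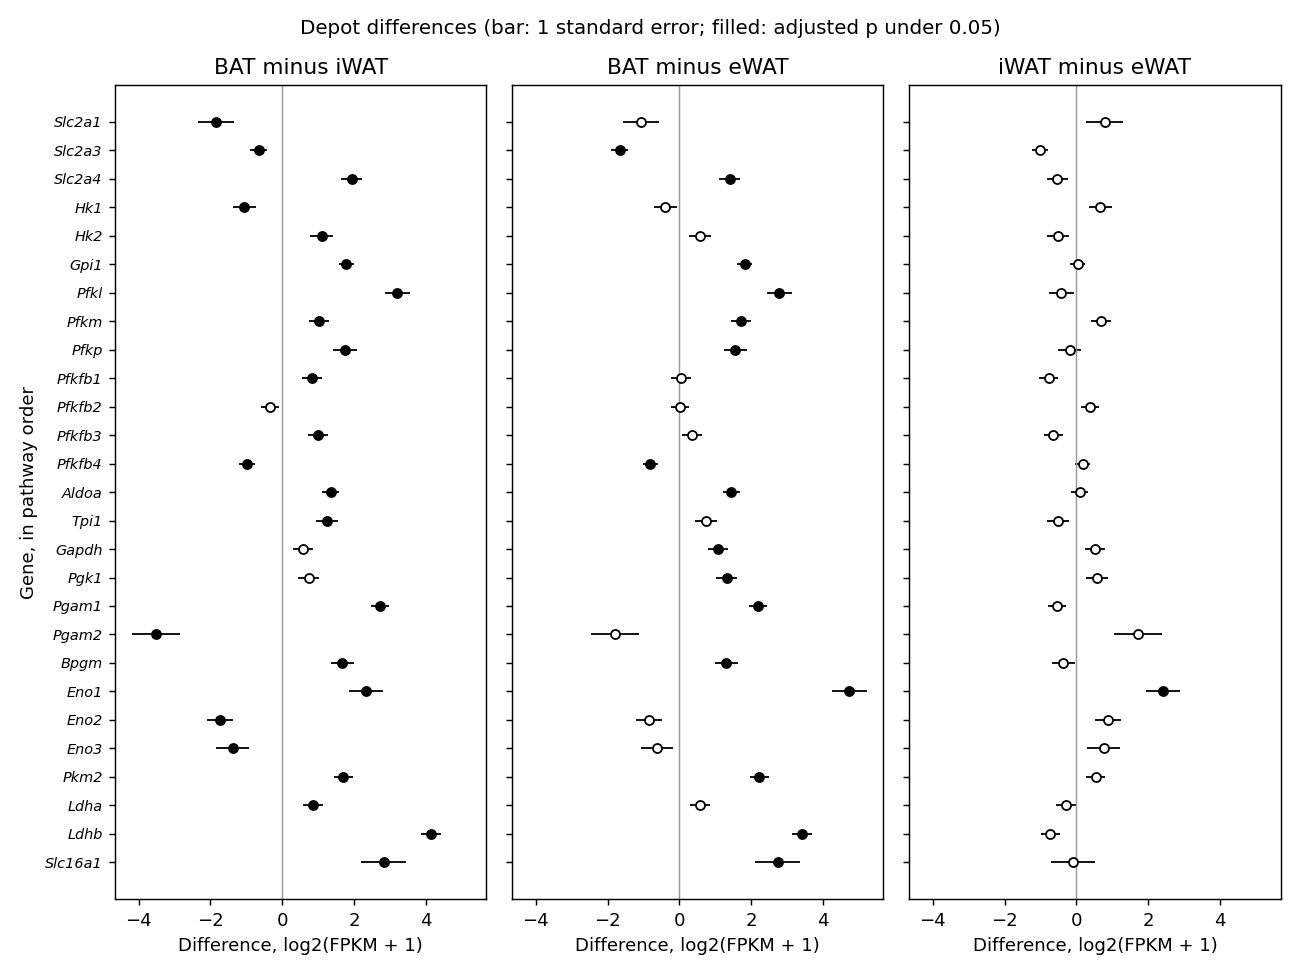
Difference between depots for the 27 tested genes on the log2(FPKM + 1) scale, with 1 standard error as the bar and a filled point where limma's adjusted p was under 0.05. Of the 27 genes, 24 have filled points for BAT minus iWAT, 16 for BAT minus eWAT and 1, Eno1, for iWAT minus eWAT.

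The transporters that bring glucose into the cell went in opposite directions. Slc2a4 encodes GLUT4, the carrier that insulin moves to the surface of fat and muscle cells, and lies on chromosome 11 from 69756045 to 69761690 (mm9, minus strand). Its level was 120, 97.3 and 120 FPKM in BAT 1 to 3, 45.7, 23.1 and 21.4 in iWAT 1 to 3, and 36.0, 47.8 and 41.2 in eWAT 1 to 3. All BAT values were above all white fat values, and iWAT and eWAT overlapped. The difference was 1.94 ± 0.29 (SE) from iWAT (limma adjusted p = 0.000475) and 1.41 ± 0.29 from eWAT (adjusted p = 0.00417).

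Slc2a1 encodes GLUT1, the carrier found in most cells at rest. Its level was 6.67, 3.11 and 2.92 FPKM in BAT, 9.34, 29.1 and 17.7 in iWAT, and 4.01, 15.4 and 12.7 in eWAT. BAT was below iWAT in every library, by -1.85 ± 0.51 (limma adjusted p = 0.0109), while eWAT 1 lay within the BAT range and eWAT 2 and 3 above it. The difference from eWAT, -1.06 ± 0.51, was not called (adjusted p = 0.127), and without eWAT 1 it was -1.59 (adjusted p = 0.0200). Slc2a3, which encodes the high-affinity carrier GLUT3 of neurons and blood cells, was low throughout, at 0.0971 to 0.287 FPKM in BAT, 0.572 to 1.14 in iWAT and 1.84 to 3.44 in eWAT. Its values in the 3 depots did not overlap, with BAT lowest and eWAT highest. The difference was -0.65 from iWAT (adjusted p = 0.0328) and -1.66 from eWAT (adjusted p = 0.000377). The Slc2a3 call against iWAT was lost without BAT 1, BAT 2, BAT 3, iWAT 1 or iWAT 3, with adjusted p from 0.0614 to 0.116.

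Hexokinases trap glucose in the cell as glucose 6-phosphate. Hk2, the form typical of insulin-sensitive tissues, was at 14.8, 12.5 and 22.5 FPKM in BAT, 7.88, 4.41 and 9.68 in iWAT and 9.24, 12.7 and 9.52 in eWAT. BAT was above iWAT in every library, by 1.10 ± 0.31 (limma adjusted p = 0.0124), and overlapped with eWAT, where the difference of 0.59 ± 0.31 was not called (adjusted p = 0.160). The Hk2 call was lost without BAT 3 (0.87, adjusted p = 0.0588). Hk1, the form of most other tissues, ran the other way, with 1.54, 1.07 and 0.965 FPKM in BAT, 2.28, 5.62 and 3.34 in iWAT and 0.899, 2.64 and 2.34 in eWAT. It was lower in BAT than in iWAT by -1.06 ± 0.32 (adjusted p = 0.0169). Without BAT 2, BAT 3 or iWAT 2 the Hk1 difference was no longer called, with adjusted p from 0.0547 to 0.0608. Hk3, a hexokinase of white blood cells, was at 0.0591 FPKM in BAT 1 and listed at 0 in the other 8 libraries. Gpi1 encodes the isomerase that turns glucose 6-phosphate into fructose 6-phosphate, and was at 176 to 208 FPKM in BAT against 53.3 to 56.8 in iWAT and 43.4 to 62.3 in eWAT. Its difference was 1.79 ± 0.21 from iWAT (adjusted p = 0.000116) and 1.83 ± 0.21 from eWAT (adjusted p = 0.000123).

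Phosphofructokinase commits sugar to glycolysis and works as a tetramer of liver-type (Pfkl), muscle-type (Pfkm) and platelet-type (Pfkp) subunits. Pfkl, on chromosome 10 from 77449692 to 77472828 (mm9, minus strand), was at 130, 110 and 119 FPKM in BAT, 20.1, 7.08 and 11.9 in iWAT and 15.0, 12.1 and 23.9 in eWAT. The lowest BAT value, 110, lay far above the highest white fat value, 23.9, and the white depots overlapped. The difference was 3.21 ± 0.35 from iWAT (limma adjusted p = 8.09e-05) and 2.79 ± 0.35 from eWAT (adjusted p = 0.000213). Pfkm was at 19.4 to 27.6 FPKM in BAT, 9.13 to 13.9 in iWAT and 4.35 to 8.05 in eWAT, with differences of 1.03 (adjusted p = 0.00963) and 1.72 (adjusted p = 0.000901). Pfkp was at 11.6 to 15.4 in BAT, 1.89 to 6.00 in iWAT and 2.94 to 5.33 in eWAT, with differences of 1.75 (adjusted p = 0.00160) and 1.56 (adjusted p = 0.00444). Each of these 3 genes was above both white depots in every BAT library.

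The Pfkfb enzymes make and break fructose 2,6-bisphosphate, the strongest activator of phosphofructokinase, and showed no common direction. Pfkfb3, the form with the highest ratio of kinase to phosphatase activity, was at 53.0, 67.4 and 97.2 FPKM in BAT, 46.4, 31.5 and 28.8 in iWAT and 51.6, 57.2 and 55.3 in eWAT. It was higher in BAT than in iWAT by 0.99 ± 0.27 (limma adjusted p = 0.0107) and overlapped with eWAT. Without BAT 3, its highest library, the Pfkfb3 difference was 0.76 (adjusted p = 0.0557). Pfkfb1, first known from liver and muscle, was at 23.4 to 32.1 FPKM in BAT and 10.5 to 20.7 in iWAT, a difference of 0.83 (adjusted p = 0.0262), and at 20.6 to 28.3 in eWAT. The Pfkfb1 call was lost without BAT 2, BAT 3, iWAT 2 or iWAT 3 (adjusted p from 0.0537 to 0.108). Pfkfb2, the heart form, was at 1.06 to 3.33 FPKM over all libraries and differed in neither comparison with BAT (-0.34, 95% interval -0.89 to 0.21, and 0.03, interval -0.52 to 0.58). Pfkfb4, first described in testis, was low and lowest in BAT, at 0.247 to 0.735 FPKM against 1.44 to 2.22 in iWAT (-0.99, adjusted p = 0.00368) and 1.12 to 1.84 in eWAT (-0.81, adjusted p = 0.0160). Against eWAT the Pfkfb4 call was lost without BAT 1, BAT 2 or eWAT 2 (adjusted p from 0.0628 to 0.0785).

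Aldolase splits the 6-carbon sugar into 2 triose phosphates, and triose phosphate isomerase interconverts these. Aldoa, the main aldolase of muscle and most tissues, was the most abundant of the 31 genes in BAT, at 1452, 1650 and 1384 FPKM, against 704, 642 and 436 in iWAT and 513, 571 and 550 in eWAT. The difference was 1.36 ± 0.23 from iWAT (limma adjusted p = 0.00103) and 1.45 ± 0.23 from eWAT (adjusted p = 0.000922). Aldoc, the brain form, was at 1.02 FPKM or less in every library and was not tested. Tpi1 was at 273, 350 and 298 FPKM in BAT, 206, 85.3 and 119 in iWAT and 202, 175 and 172 in eWAT. It was higher in BAT than in iWAT by 1.25 (adjusted p = 0.00600, and 0.0539 after quantile normalization). Against eWAT the BAT values of Tpi1 were also all higher, but the difference of 0.74 was not called (adjusted p = 0.0821). It was called there without iWAT 1 (adjusted p = 0.0101) or iWAT 2 (adjusted p = 0.0337). These libraries are not in the difference itself, and enter through the shared estimate of the spread, the set of genes tested and the adjustment over it.

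Glyceraldehyde 3-phosphate dehydrogenase (Gapdh) makes the NADH of glycolysis, and phosphoglycerate kinase (Pgk1) makes its first ATP. For both genes the estimated difference of BAT was larger from eWAT than from iWAT, and the 2 differences were not tested against each other. Gapdh was at 1324, 1453 and 1079 FPKM in BAT, 740, 1102 and 777 in iWAT and 421, 771 and 663 in eWAT. BAT 3 lay below iWAT 2, and the difference from iWAT, 0.57 ± 0.28, was not called (limma adjusted p = 0.105). With quantile normalization the Gapdh difference from iWAT was -0.18. Against eWAT every BAT value was higher, by 1.09 ± 0.28 (adjusted p = 0.0138), a call lost without BAT 1 (adjusted p = 0.0523), without BAT 2 (adjusted p = 0.0626) and under quantile normalization (adjusted p = 0.189). Pgk1 was at 565, 485 and 575 FPKM in BAT, 245, 411 and 336 in iWAT and 142, 272 and 259 in eWAT, with no overlap of BAT and either white depot. Its difference was 0.74 ± 0.30 from iWAT (adjusted p = 0.0540) and 1.32 ± 0.30 from eWAT (adjusted p = 0.00669, and 0.0638 after quantile normalization). The Pgk1 difference from iWAT was called without iWAT 2 (0.91, adjusted p = 0.0360), without eWAT 1 (adjusted p = 0.0253) and in the fit with a block for replicate number (adjusted p = 0.0379).

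Some of these genes have processed copies elsewhere in the genome that short reads can hardly tell from the source. The longest coding sequence of each gene was aligned to mm9, and a copy was counted at 95% identity over at least 50% of the length. By this rule Gapdh had 51 copies, Pgk1, Pgam1, Eno1 and Ldha 2 each, Ldhb 1 and the other 25 genes none. The Pgk1 copies Pgk1-rs7 and Gm5537 and the Pgam1 copy Pgam1-ps2 were 100% identical over the full coding length. So were the Gapdh copies Gm12671, Gm10359 and Gm7336. No copy was added for Pgk1, Pgam1, Ldha or Ldhb, so that their lines may lack reads or hold those of a copy. The strand and multiple-mapping settings of the deposited counting are not given in the sources used here. The Gapdh copy Gm12070, which has a line of its own in the table, differs from Gapdh at 1 of 1002 coding bases. That base is shown in capitals within coding bases 311 to 410 of Gapdh and at the matching site of the copy, chr11:26686943-26687042 (mm9, plus strand).
Gapdh: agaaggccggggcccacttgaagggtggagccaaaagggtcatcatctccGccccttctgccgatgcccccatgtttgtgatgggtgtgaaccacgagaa
Gm12070: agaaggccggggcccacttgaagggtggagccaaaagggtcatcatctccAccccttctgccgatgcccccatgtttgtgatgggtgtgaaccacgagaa
The Gm12070 line was at 120 to 163 FPKM in BAT, 46.8 to 62.2 in iWAT and 31.4 to 50.2 in eWAT. With it added, Gapdh differed by 0.64 from iWAT (limma adjusted p = 0.0723) and by 1.15 from eWAT (adjusted p = 0.0103), on the same sides of the threshold as without it.

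The 2 phosphoglycerate mutases stood on opposite sides of iWAT. Pgam1, the brain-type form found in most tissues, was at 483, 464 and 487 FPKM in BAT, 100.3, 62.8 and 56.8 in iWAT and 95.1, 93.9 and 127 in eWAT. BAT was higher by 2.73 ± 0.25 than iWAT (limma adjusted p = 3.14e-05) and by 2.19 ± 0.25 than eWAT (adjusted p = 0.000127). Pgam2, the muscle form, lies on chromosome 11 from 5701643 to 5703736 (mm9, minus strand). It was at 0.294, 0.115 and 0.0750 FPKM in BAT, 22.4, 8.20 and 9.71 in iWAT and 0.113, 9.16 and 4.69 in eWAT. All BAT values of Pgam2 and that of eWAT 1 were under 0.3 FPKM, and the other 5 libraries were at 4.69 FPKM or more. The difference from iWAT was -3.51 ± 0.67 (adjusted p = 0.00186). The difference from eWAT was -1.79 ± 0.67 (adjusted p = 0.0631), and -2.71 without eWAT 1 (adjusted p = 0.00109). Bpgm makes 2,3-bisphosphoglycerate, known as the oxygen-affinity regulator of red cells. It was at 25.6 to 30.3 FPKM in BAT, 4.66 to 13.9 in iWAT and 9.30 to 12.7 in eWAT, higher in BAT by 1.68 (adjusted p = 0.00191) and 1.31 (adjusted p = 0.0107).

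Enolase removes water to form phosphoenolpyruvate. Eno1, the form of most tissues, lies on chromosome 4 from 149610830 to 149622988 (mm9, plus strand). Its line was at 509, 484 and 354 FPKM in BAT, 44.8, 154 and 96.3 in iWAT and 11.1, 31.2 and 10.8 in eWAT, with no overlap between any 2 depots. The differences were 2.33 ± 0.48 for BAT minus iWAT (limma adjusted p = 0.00276), 4.74 ± 0.48 for BAT minus eWAT (adjusted p = 5.24e-05) and 2.41 ± 0.48 for iWAT minus eWAT (adjusted p = 0.0358). The Eno1 line cannot be read alone, because both copies are near-identical to it. The copy Gm13699 differs from Eno1 at 5 of 1305 coding bases. Coding bases 1134 to 1233 of Eno1 are shown with the matching site of the copy, chr2:80678431-80678530 (mm9, plus strand), and capitals mark the 2 bases that differ.
Eno1: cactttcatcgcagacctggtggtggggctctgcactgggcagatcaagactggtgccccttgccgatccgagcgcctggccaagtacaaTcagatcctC
Gm13699: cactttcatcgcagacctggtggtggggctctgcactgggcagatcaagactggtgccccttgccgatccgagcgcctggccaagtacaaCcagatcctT
The other copy, Gm5506, was on 2 lines of the table. The first was at 555 to 721 FPKM in BAT, 39.5 to 151 in iWAT and 82.7 to 89.9 in eWAT, above Eno1 itself in every BAT and eWAT library and in iWAT 1. The second was at 81.4 to 133 in BAT and 73.4 to 120 in eWAT, at 116 in iWAT 1 and near 0 (2.94e-06 and 1.01e-05) in iWAT 3 and 2. Summed with both lines, Eno1 was at 1285, 1338 and 1037 FPKM in BAT, 312, 216 and 136 in iWAT and 167, 215 and 220 in eWAT. The sum was higher in BAT than in iWAT by 2.53 (adjusted p = 0.000125) and than in eWAT by 2.60 (adjusted p = 0.000125), and iWAT and eWAT differed by 0.07 (adjusted p = 0.883). The call between the white depots was thus not seen with the Gm5506 lines added. Gm13699 is not in this sum.

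**Figure D3:**
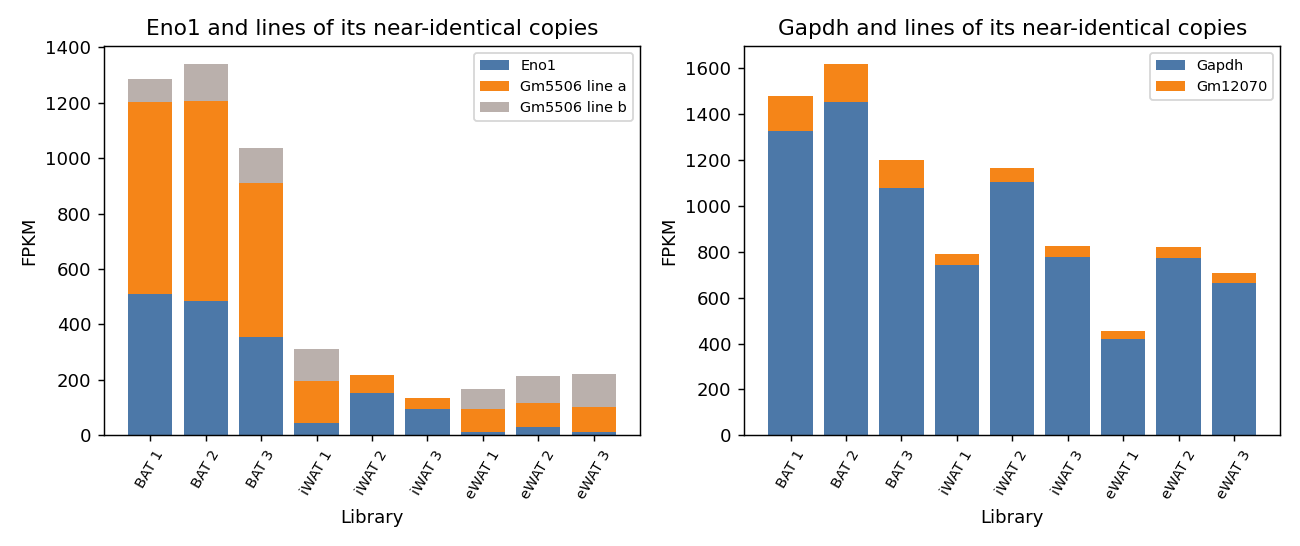
Left, FPKM of Eno1 and of the 2 lines of its copy Gm5506 in each library. Right, FPKM of Gapdh and of its copy Gm12070. Stacked bars start at 0. In iWAT 2 and 3 most of the Eno1 and Gm5506 sum is on the Eno1 line, while in eWAT most of it is on the Gm5506 lines.

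The other 2 enolases were low and ran against Eno1. Eno2, the neuronal form, was at 1.19, 0.336 and 0.543 FPKM in BAT, 3.01, 5.30 and 5.52 in iWAT and 0.734, 3.12 and 2.65 in eWAT. It was lower in BAT than in iWAT by -1.73 ± 0.36 (limma adjusted p = 0.00270) with no overlap, and overlapped with eWAT through eWAT 1. Eno3, the muscle form, was at 3.33, 3.15 and 2.70 FPKM in BAT, 17.4, 6.06 and 8.06 in iWAT and 2.02, 7.38 and 8.44 in eWAT. Its difference from iWAT was -1.38 ± 0.45 (adjusted p = 0.0245). The Eno3 call was lost without BAT 1, BAT 2, BAT 3 or iWAT 1 (adjusted p from 0.0506 to 0.0734). Against eWAT the differences of Eno2 and Eno3 were -0.84 and -0.62 and were not called, while without eWAT 1 they were -1.23 (adjusted p = 0.0115) and -1.14 (adjusted p = 0.0350).

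Pyruvate kinase ends the pathway. Pkm2, the table's symbol for the gene of the muscle-type enzymes (Pkm), was at 732, 715 and 604 FPKM in BAT, 194, 246 and 193 in iWAT and 98.6, 182 and 166 in eWAT. BAT was higher by 1.70 ± 0.26 than iWAT (limma adjusted p = 0.000586) and by 2.23 ± 0.26 than eWAT (adjusted p = 0.000139). One line stands for the whole gene, so that the M1 and M2 splice forms were not separated. Pklr, the gene of the liver and red cell enzymes, was listed at 0 in 7 libraries and was at 0.366 FPKM or less in the other 2, eWAT 2 and 3.

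Lactate dehydrogenase interconverts pyruvate and lactate as a tetramer of A subunits (Ldha), frequent in tissues that release lactate, and B subunits (Ldhb), frequent in oxidative tissues such as heart. Ldhb had the largest difference from iWAT of the 27 genes. It lies on chromosome 6 from 142438769 to 142456477 (mm9, minus strand), and was at 571, 885 and 631 FPKM in BAT, 53.6, 35.1 and 28.5 in iWAT and 67.0, 63.9 and 58.3 in eWAT. The difference was 4.14 ± 0.27 from iWAT (limma adjusted p = 6.09e-06) and 3.42 ± 0.27 from eWAT (adjusted p = 1.41e-05), and it was called under every alternative tried. Ldha was high in every depot, at 863, 953 and 914 FPKM in BAT, 759, 359 and 464 in iWAT and 589, 593 and 651 in eWAT. All BAT values of Ldha were above all white fat values, by 0.86 ± 0.27 from iWAT (adjusted p = 0.0213) and by 0.57 ± 0.27 from eWAT (adjusted p = 0.125). The Ldha call against iWAT was lost without any 1 of BAT 1, BAT 2, BAT 3, iWAT 2 and iWAT 3 (adjusted p from 0.0508 to 0.0691). Quantile normalization gave a Ldha difference of 0.09 there. Against eWAT it was called without iWAT 1 (adjusted p = 0.0164).

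Lactate and pyruvate leave or enter the cell through monocarboxylate transporters. Slc16a1, which encodes MCT1, lies on chromosome 3 from 104442591 to 104462385 (mm9, plus strand). It was at 108, 42.4 and 109 FPKM in BAT, 14.8, 3.18 and 20.9 in iWAT and 10.3, 6.35 and 19.9 in eWAT. In each depot the library numbered 2 was the lowest, and no BAT value overlapped with white fat. The difference was 2.83 ± 0.62 from iWAT (limma adjusted p = 0.00382) and 2.74 ± 0.62 from eWAT (adjusted p = 0.00704). Slc16a3, which encodes MCT4, the exporter of highly glycolytic cells, was at 0.214 to 0.321 FPKM in BAT, 0.639 to 1.11 in iWAT and 0.0248 to 0.442 in eWAT and was not tested.

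Sequences around the starts of 4 of these genes are shown because Ldhb, Slc16a1 and Pfkl had large differences in both comparisons with BAT and Ldha is the partner of Ldhb. These genes were chosen after their values were seen. They are RefSeq windows on GRCm38.p6 that run from 250 bases before to 50 after the annotated start. Capitals mark ACGTG, the core letters bound by hypoxia-inducible factors and, inside CACGTG, by E-box factors such as ChREBP, and GGGCGG, the letters of a GC box, each on either strand. The windows are chr6:142507908-142508207 (minus strand) for Ldhb, chr7:46845554-46845853 (plus strand, 1 of 2 Ldha windows), chr10:78009758-78010057 (minus strand) for Pfkl and chr3:104638414-104638713 (plus strand) for Slc16a1.
Ldhb: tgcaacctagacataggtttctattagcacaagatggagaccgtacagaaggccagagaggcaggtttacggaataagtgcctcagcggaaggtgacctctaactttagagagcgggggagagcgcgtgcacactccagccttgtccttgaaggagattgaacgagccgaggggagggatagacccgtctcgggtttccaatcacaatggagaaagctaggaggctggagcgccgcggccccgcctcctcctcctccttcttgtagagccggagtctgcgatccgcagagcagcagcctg
Ldha: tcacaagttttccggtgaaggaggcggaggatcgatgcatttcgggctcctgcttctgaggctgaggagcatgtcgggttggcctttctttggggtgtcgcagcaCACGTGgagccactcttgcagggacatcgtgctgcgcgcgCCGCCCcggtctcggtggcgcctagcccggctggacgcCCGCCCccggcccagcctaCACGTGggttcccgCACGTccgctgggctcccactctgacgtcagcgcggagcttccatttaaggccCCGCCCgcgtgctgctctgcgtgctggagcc
Pfkl: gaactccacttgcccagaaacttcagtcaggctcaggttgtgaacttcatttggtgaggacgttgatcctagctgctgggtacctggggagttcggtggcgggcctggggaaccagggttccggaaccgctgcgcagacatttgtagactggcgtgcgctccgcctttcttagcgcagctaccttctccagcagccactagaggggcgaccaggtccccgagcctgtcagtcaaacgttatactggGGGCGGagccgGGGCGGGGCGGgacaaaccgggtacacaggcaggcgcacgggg
Slc16a1: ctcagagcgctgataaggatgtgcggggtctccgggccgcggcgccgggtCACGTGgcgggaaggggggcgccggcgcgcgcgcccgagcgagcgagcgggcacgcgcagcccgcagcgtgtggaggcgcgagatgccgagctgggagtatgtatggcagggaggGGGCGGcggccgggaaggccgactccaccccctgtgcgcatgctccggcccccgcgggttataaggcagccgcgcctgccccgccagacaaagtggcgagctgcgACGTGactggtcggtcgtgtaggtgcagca
Counting both strands, so that each CACGTG counts as 2 matches to ACGTG, the Ldha window held 5 matches to ACGTG, with 2 CACGTG among them, and 3 to GGGCGG. The Slc16a1 window held 3 matches to ACGTG, with 1 CACGTG, and 1 to GGGCGG. The Pfkl window held 3 matches to GGGCGG, 2 of them overlapping, and none to ACGTG, and the Ldhb window held neither motif. Windows were given for 29 of the 31 genes (Pkm2 as Pkm), 47 in all. ACGTG was in 20 of the 47 (42.6%), against 19.6% of the 32851 windows of all genes. CACGTG was in 5 (10.6%, against 7.15%) and GGGCGG in 23 (48.9%, against 35.7%). These are counts of letters in the annotated windows, and windows of 1 gene can overlap.

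The share of each isoenzyme within its family does not depend on how a library is scaled. It was compared among the 3 depots by an exact permutation test of the F statistic over all 1680 assignments of the 9 libraries, for 9 families, with Benjamini-Hochberg adjustment (the smallest p possible before adjustment is 0.00357). For 4 of the 9 shares the adjusted p was 0.0161. Ldhb held 42.9% ± 4.56 (SD, n = 3) of lactate dehydrogenase FPKM in BAT, compared with 7.10% ± 1.62 in iWAT and 9.39% ± 1.04 in eWAT. Pfkl held 76.0% ± 2.37 of phosphofructokinase FPKM in BAT, compared with 45.1% ± 8.03 in iWAT and 60.4% ± 6.92 in eWAT. Hk2 held 92.7% ± 2.88 of hexokinase FPKM in BAT, compared with 65.3% ± 18.6 in iWAT and 84.7% ± 5.69 in eWAT. Pgam2 held 0.0337% ± 0.0240 of the FPKM of Pgam1 and Pgam2 in BAT, 14.8% ± 3.35 in iWAT and 4.19% ± 4.42 in eWAT, where eWAT 1 was at 0.119%.

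The other 5 shares did not pass. Slc2a4 held 96.3% ± 1.53 of the FPKM of the 3 glucose transporters in BAT, 59.5% ± 19.6 in iWAT and 76.2% ± 5.87 in eWAT (exact permutation test, adjusted p = 0.0579). In iWAT 2 the Slc2a4 share was 43.8%, below that of Slc2a1. Eno1 held 99.2% ± 0.104 of enolase FPKM in BAT, compared with 83.2% ± 12.8 in iWAT and 68.1% ± 16.5 in eWAT (adjusted p = 0.0735), and the Gm5506 lines are not in this sum. Slc16a1 held 99.6%, 90.5% and 97.6% of the FPKM of Slc16a1 and Slc16a3 (adjusted p = 0.0735). The shares of Pfkfb3 (71.0%, 65.2% and 65.9%) and Aldoc (under 0.164% in every library) had adjusted p = 0.325. The Hk2 share lost its call without any 1 of the 9 libraries except iWAT 1 and iWAT 3 (adjusted p from 0.0514 to 0.129), and the Pgam2 share without iWAT 1 (adjusted p = 0.0589) or iWAT 3 (adjusted p = 0.0707). The Slc2a4 share was called without iWAT 1 (adjusted p = 0.0214), and so was the Eno1 share (adjusted p = 0.0321). With labels permuted within replicate numbers, as a block, the test has 216 assignments and a smallest possible p of 0.0278 before adjustment, so that a share can pass only where 6 or more of the 9 are at that smallest p. The shares of Ldhb, Pfkl, Pgam2, Slc2a4 and Slc16a1 were at it (adjusted p = 0.05), and 0 passed, which says nothing about whether the differences hold within replicate numbers.

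**Figure D4:**
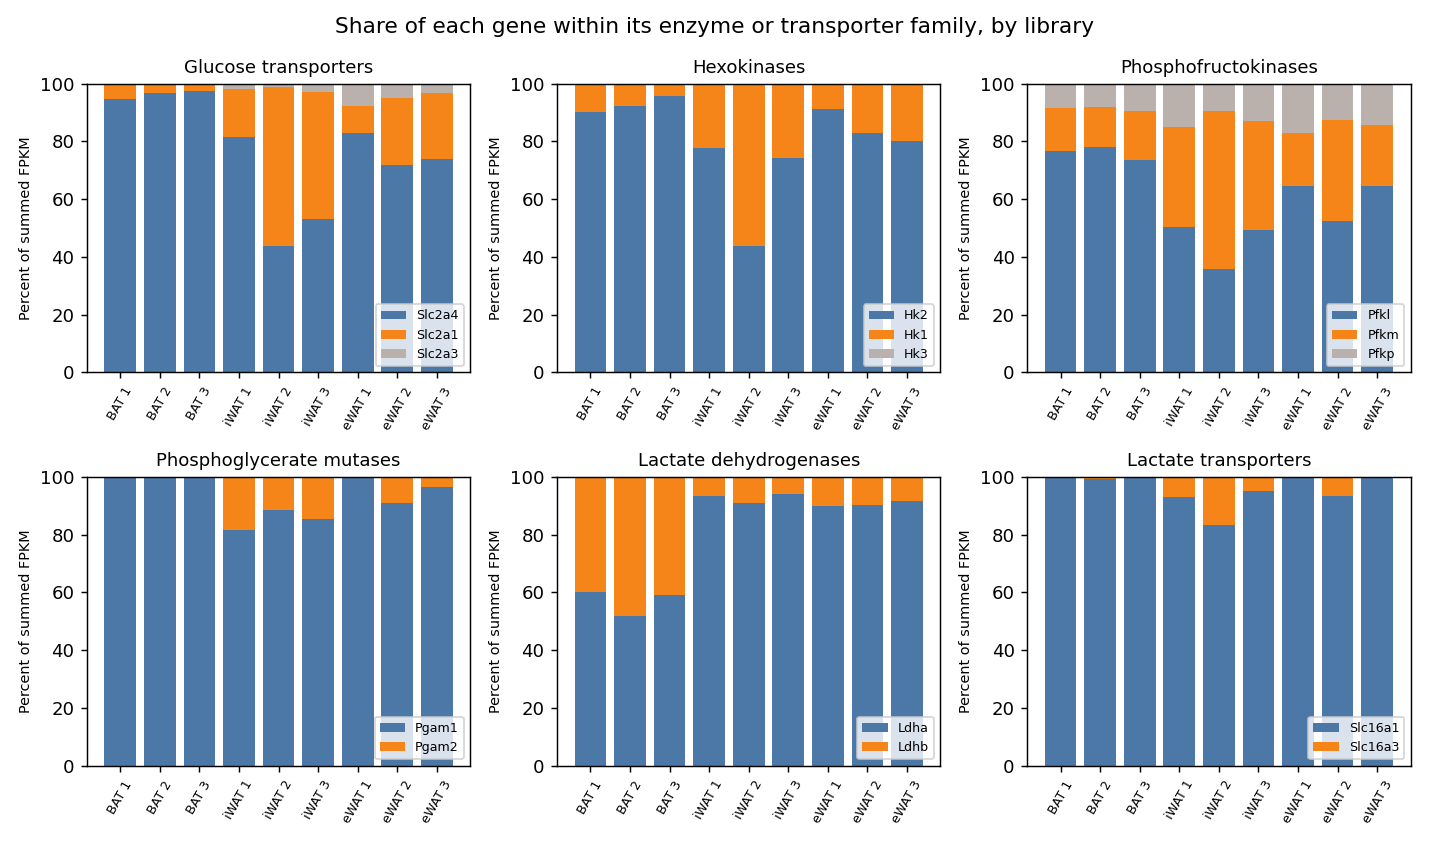
Percent of the summed FPKM of a family held by each of its genes, 1 stacked bar per library, for 6 families. Ldhb takes 39.8% to 48.2% in the BAT libraries and 5.79% to 10.2% in the white fat libraries, and Pgam2 is visible in the 3 iWAT libraries and in eWAT 2 and 3.

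The 7 genes called lower in BAT than in iWAT were Slc2a1, Slc2a3, Hk1, Pfkfb4, Pgam2, Eno2 and Eno3, and of these Slc2a3 and Pfkfb4 were also lower than in eWAT. In BAT all 7 were at 6.67 FPKM or less. Most tested skeletal muscle and epithelial markers were also lower in BAT. Of the tested erythroid (3), macrophage (2) and endothelial (1) markers, 0 were called lower than in iWAT. Among them Lyz2 and Cldn5 were called lower than in eWAT. Of 13 tested skeletal muscle markers, 11 were called lower relative to iWAT and 1 (Myl1) higher, and of 5 tested epithelial markers 4 were lower and 1 (Krt10) was higher, where 22.9% of all tested genes were lower and 34.5% higher. Against eWAT 9 of the 13 muscle markers were lower and 1 (Myl1) higher, and 3 of the 5 epithelial markers were lower, where 13.5% of all tested genes were lower and 20.2% higher. Muscle creatine kinase (Ckm) was at 0.0671 to 0.120 FPKM in BAT, 25.3 to 94.0 in iWAT, 0.0802 in eWAT 1, and 24.8 and 19.5 in eWAT 2 and 3. The keratin gene Krt5 was at 10.3 to 19.9 in BAT, 68.3 to 188 in iWAT, 29.3 in eWAT 1, and 87.3 and 79.7 in eWAT 2 and 3. Slc2a1, Hk1, Pfkfb4, Pgam2, Eno2 and Eno3 had the same order within eWAT, with eWAT 1 below eWAT 2 and 3. Slc2a3 did not, since it was highest in eWAT 1, where the muscle and epithelial sums were lowest. Within iWAT, Slc2a1 and Hk1 had the order of the epithelial sum, the other 5 genes did not, and none of the 7 had the order of the muscle sum. That sum is mostly Acta1 and Pvalb, both highest in iWAT 2, and single muscle markers differed in order. Ckm (94.0, 25.3 and 39.5 FPKM in iWAT 1 to 3) and Tnnc2 (310, 69.3 and 101) had the order of Pgam2 and Eno3. So did Mylpf, Tnni2, Tnnt3, Myh1, Myh4, Myl1 and Atp2a1, while Acta1, Pvalb, Actn3, Mb, Myh2 and Casq1 did not. The part of these markers in the lower levels was not tested. Without eWAT 1, 6 of the 27 genes were called lower in BAT than in eWAT, a share near the 21.6% of all genes tested then. Without eWAT 2 and 3, leaving the library with a depth like BAT, 11 of the 27 were called higher and 1 lower, against 10.0% and 4.22% of all genes tested, under the assumption that the lone library varies like the others. In that fit Pfkp (adjusted p = 0.0625), Pfkfb4 (0.257), Bpgm (0.201) and Slc16a1 (0.0638) lost their call.

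**Figure D5:**
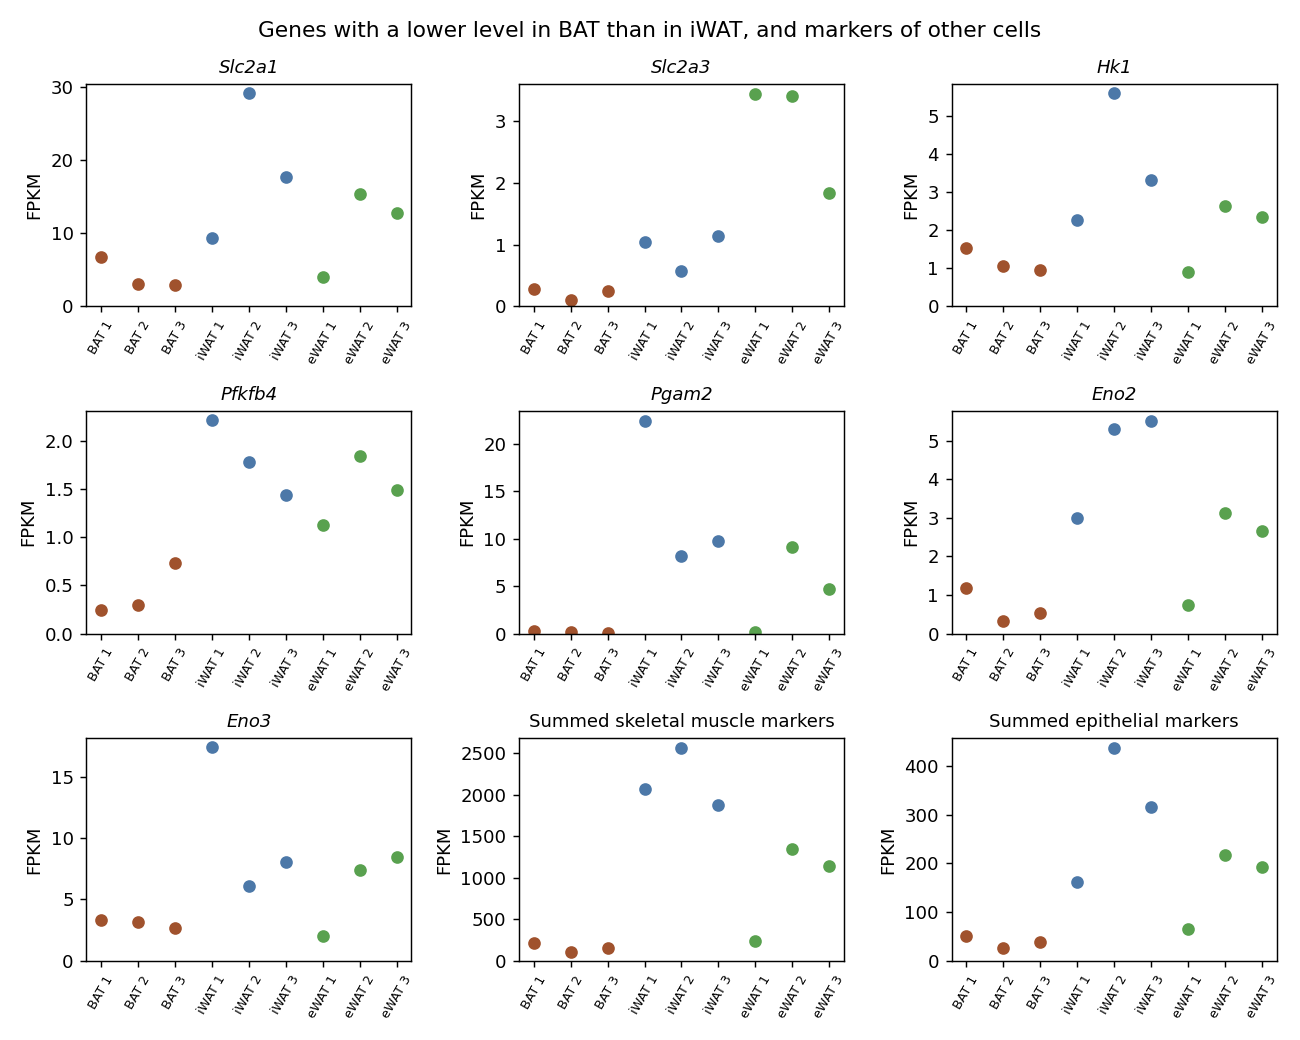
FPKM in each library of the 7 genes called lower in BAT than in iWAT, and the summed FPKM of the 15 skeletal muscle and 8 epithelial markers. Each axis starts at 0. In eWAT 1 (the first green point) Slc2a1, Hk1, Pfkfb4, Pgam2, Eno2, Eno3 and both marker sums are the lowest of the 3 eWAT libraries, while Slc2a3 is the highest.

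Few of these genes were called between the white depots. Of the 27, only the Eno1 line was called between iWAT and eWAT (0.231% of all tested genes were called higher in iWAT and 1.50% lower, 1.74% in all), and its value with the Gm5506 lines is given above. At an unadjusted p under 0.05 there were 4 of the 27 higher and 4 lower in iWAT. The 2 depots did not overlap for 6 of the 27 genes, against 22.7% of all tested genes. The median difference over the 27 genes was 0.04, and -0.18 over all tested genes. Slc2a3 was closest to a call with -1.01 (95% interval -1.52 to -0.49, limma adjusted p = 0.0587). For Slc2a4 the difference of iWAT minus eWAT was -0.53 (interval -1.18 to 0.12), for Pfkl -0.42 (interval -1.20 to 0.36) and for Ldhb -0.72 (interval -1.33 to -0.12, adjusted p = 0.146), so that differences of more than 1 on this scale are within these intervals. The result turned on iWAT 1. Without it 9 genes were called lower in iWAT than in eWAT: Slc2a3, Slc2a4, Pfkfb1, Pfkfb3, Tpi1, Pgam1, Bpgm, Ldha and Ldhb, with differences from -0.58 (Ldha, adjusted p = 0.0341) to -1.06 (Slc2a3, adjusted p = 0.0151). Eno2 was then called higher in iWAT (1.11, adjusted p = 0.0496), beside Eno1. Over all genes 2859 (27.8%) were then called lower and 456 (4.44%) higher, against 156 and 24 with all libraries. Over genes, iWAT 1 correlated at 0.899 and 0.934 with iWAT 2 and 3, and at 0.945, 0.963 and 0.962 with eWAT 1 to 3. Its Adipoq level was 2169 FPKM, against 456 and 771 in iWAT 2 and 3 and 1856 to 2932 in eWAT. Cidea, a marker of brown fat, was at 103 in iWAT 1, 95.1 and 17.2 in iWAT 2 and 3, and 4.01 to 10.5 in eWAT. Array weights called 4 of the 27 lower in iWAT (Slc2a4, Pfkfb1, Pgam1 and Ldhb), against 18.2% of all genes. The Eno1 call was lost without any 1 of the other libraries except eWAT 2 (adjusted p from 0.0685 to 0.168), and was kept in the fits with a block for replicate number.

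Genes that feed from or into glycolysis were read from the same fit, in which 34.5% of all tested genes were higher and 22.9% lower in BAT than in iWAT, and 20.2% higher and 13.5% lower than in eWAT. In the pyruvate entry list (carriers, pyruvate dehydrogenase subunits with their kinases and phosphatases, and pyruvate carboxylase) BAT was higher than iWAT for 11 of 14 tested genes and lower for 2, and higher than eWAT for 11 and lower for 1, with medians of 2.60 and 2.20. Pdk4, a kinase that turns pyruvate dehydrogenase off, averaged 488.7 ± 44.9 FPKM in BAT (SD, n = 3) against 11.3 ± 2.74 in iWAT and 6.14 ± 4.15 in eWAT, a difference of 5.33 and 6.29 (limma adjusted p = 1.11e-05 and 4.29e-06). Pdha1, the catalytic subunit that this kinase acts on, was also higher (489.6 ± 62.0 against 55.6 ± 20.0 and 64.2 ± 11.9), and so was the kinase Pdk2 (157 ± 26.2 against 17.3 ± 5.39 and 21.5 ± 3.70). The 2 lower genes, named here after their values were seen, were Pdk3 (0.599 ± 0.299 against 3.55 ± 0.402 and 4.86 ± 0.941) and, against iWAT, the phosphatase Pdp1 (2.03 to 4.11 against 6.00 to 15.6). In eWAT 1 to 3 Pdp1 was at 2.97, 10.5 and 9.19, with eWAT 1 within the BAT range. Its order within iWAT and within eWAT was that of the epithelial sum, whose part was not tested.

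In the NADH shuttles, which carry the reducing power of glycolysis into mitochondria, 5 of 9 genes were higher and 2 lower in BAT than in iWAT, and 5 of 9 were higher than in eWAT. Both glycerol phosphate dehydrogenases were among them: Gpd1, the cytosolic enzyme, at 1057 ± 50.7 FPKM in BAT against 103 ± 55.2 in iWAT and 63.9 ± 14.2 in eWAT, and Gpd2, the mitochondrial enzyme, at 60.4 ± 6.28 against 4.83 ± 1.37 and 4.34 ± 0.701 (SD, n = 3). Mdh2, the mitochondrial malate dehydrogenase, was at 1036 ± 91.9 in BAT against 162 ± 98.0 and 283 ± 51.9. Of the pentose phosphate genes 6 of 8 were called higher relative to iWAT and 4 of 8 relative to eWAT. G6pdx, which encodes its first enzyme, averaged 22.9 ± 3.55 FPKM in BAT against 5.07 ± 2.34 in iWAT and 9.28 ± 2.47 in eWAT, and Tkt (transketolase) at 544.0 ± 74.0, 226 ± 51.8 and 171 ± 89.9. Gluconeogenic and glyceroneogenic enzymes had 3 of 4 tested genes higher in both comparisons. Fbp2, the muscle-type fructose bisphosphatase, was at 12.2 to 30.8 FPKM in BAT, at 0.407 or less in iWAT and listed at 0 in eWAT. Pck1, the cytosolic phosphoenolpyruvate carboxykinase, was at 1419 ± 60.8 in BAT against 438 ± 230.3 and 520.3 ± 67.3.

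Among other sugar transporters and their regulators BAT was higher than iWAT for 4 of 7 tested genes and lower for 2 (34.5% and 22.9% of all tested genes). Against eWAT 1 was higher and 1 lower, near the shares of all tested genes (20.2% and 13.5%). Slc2a8, which encodes the intracellular carrier GLUT8, averaged 14.7 ± 2.81 FPKM in BAT (SD, n = 3) against 3.27 ± 2.01 in iWAT and 7.37 ± 2.01 in eWAT, where the difference from eWAT, 0.92, was not called (limma adjusted p = 0.0561). Tbc1d1, a brake on GLUT4 traffic first known from muscle, was lower in BAT than in iWAT (1.87 ± 0.604 against 8.80 ± 4.08). In eWAT it was at 1.53, 6.51 and 5.65, with eWAT 1 within the BAT range, and was not called (limma adjusted p = 0.173). Its order within iWAT and within eWAT was that of the epithelial sum, whose part was not tested. Of the other lactate genes 3 of 4 were higher than in iWAT, and 1 was higher and 1 lower than in eWAT. Ldhd, the mitochondrial D-lactate dehydrogenase, was at 49.3 ± 7.73 in BAT against 4.83 ± 2.85 and 7.84 ± 2.68, and Bsg, the chaperone that brings MCT1 to the membrane, at 405 ± 25.1 against 156 ± 76.3 and 249 ± 42.8, where the second difference was not called (limma adjusted p = 0.103). Of 7 transcription factors of glycolytic genes, 4 were higher and 1 lower in BAT than in iWAT, and 2 were higher and 1 lower than in eWAT. Epas1, which encodes the hypoxia-inducible factor HIF-2 alpha, was at 41.0 ± 8.27 FPKM in BAT against 8.49 ± 1.91 and 10.9 ± 3.29 (adjusted p = 0.000181 and 0.000563). Mlx, the partner of ChREBP, was at 33.0 ± 1.06 against 10.7 ± 2.06 and 10.9 ± 2.38. Myc was lower, at 1.76 ± 0.407 against 13.6 ± 11.7 and 6.33 ± 2.64 (adjusted p = 0.00397 and 0.0488). Between iWAT and eWAT limma called 0 of the 53 tested genes of these 7 lists, against 1.74% of all tested genes. An unadjusted p under 0.05 was reached by 14 of the 53, 12 lower and 2 higher in iWAT. No share of all genes is given for that limit.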

How the data were processed

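One deposited table gave 1 value per gene for each of 9 libraries. Its values are FPKM made by the authors from TopHat and Cufflinks output against mouse build mm9, per the submitters' processing notes, which give no versions. The header names no unit, and FPKM was taken from the naming of Cufflinks and from fractional values with unequal column sums. The annotation, the strand setting, filters and the treatment of reads that map to several places are not given in the sources used here. Per the labels, RNA was depleted of ribosomal RNA and sequenced from one end.

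The table held 22996 lines, and for 259 symbols on more than 1 line that with the highest mean was kept. All differences are contrasts of 3 depot means in limma 3.58.1 (R 4.3.3; empirical Bayes with trend, 6 residual degrees of freedom) on log2(FPKM + 1), fitted over every gene that reached 1 FPKM in 3 or more libraries. This scale understates changes of low genes. The count test foreseen for a count table did not apply. Intervals are 95%. Read totals are not in the table, and depth was estimated from FPKM steps of 1 to 3 reads in genes of at least 1000 bases. Of these steps 44.6% to 63.9% lay within 0.15 of a whole read, with the lowest share in eWAT 1, whose depth is thus the least certain. Coding sequences (GENCODE vM1) were aligned to mm9 with minimap2 2.31-r1302. The fit and the depth estimate were tested on simulated data, the latter with whole reads and no error in gene length. Python 3.11.15, pandas 2.3.3, pysam 0.24.0 and matplotlib 3.10.9 were used.

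The genes and lists were chosen with earlier results of these data known. Named genes were every gene of the pathway set and, per neighbouring list and comparison, up to 3 called genes with the largest difference. Alternatives were no low-value filter or one at a mean of 5 FPKM, a pseudocount of 0.1, 2 other scalings, single pairs of depots, array weights, a replicate block, a 2-fold minimum, summed repeated symbols and libraries left out. After seeing the data, the block within single pairs of depots and the addition of copies were added. The copies added were the Gm5506 lines to Eno1 and Gm12070 to Gapdh, and no others. Same-numbered iWAT and eWAT libraries deviated together over genes (correlations 0.634, 0.534 and 0.165). Unlike-numbered libraries of these depots were at -0.576 to 0.228, so that numbers 1 and 2 stood above this range and number 3 within it. Deviations within a depot of 3 libraries cancel out, so that these correlations are not independent of each other. They cannot tell a pairing from 1 unusual library of the same number in each depot. The labels state no pairing. Same-numbered libraries of BAT did not stand above the range of unlike-numbered ones (-0.324, -0.225 and 0.121 with iWAT, and -0.388, -0.202 and 0.103 with eWAT).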

Additional observations from a re-analysis of the deposited data

How the results depend on the processing

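Across the alternatives 13 to 18 genes were called higher in BAT than in iWAT and 11 to 17 higher than in eWAT, and no result changed sign while called. In these fits 14.1% to 40.8% of all genes tested were called higher in BAT than in iWAT and 7.84% to 29.9% higher than in eWAT. Calls of lower levels depended more on the choices. Lower than in iWAT (7 in the report) were 4 genes without a low-value filter (Pfkfb4, Pgam2, Eno2 and Slc16a3, the last not tested otherwise), where 7.38% of all genes were lower. There were 3 with a filter at a mean of 5 FPKM, which removes 5 of the 27 genes (23.2% of all genes). With 1 library left out there were 4 to 7 (15.6% to 25.7% of all genes). Lower than in eWAT (2) were 0 with the filter at a mean of 5 FPKM (14.2% of all genes) and 7 of 27 with array weights, where 34.0% of all genes were lower. There was 1 with a 2-fold minimum (9.74% of all genes), and 1 to 6 with 1 library left out (7.74% to 21.6%). Higher in iWAT than in eWAT (1, Eno1) were 0 with a pseudocount of 0.1, without a filter, with each pair of depots fitted alone and with the copies added (0.102% to 0.222% of all genes). With 1 library left out there were 0 to 2 (0.108% to 4.44% of all genes). Lower in iWAT than in eWAT (0) were 4 of 27 with array weights, where 18.2% of all genes were lower. With 1 library left out there were 0 to 9 (0.0393% to 27.8% of all genes). The filters change which genes are tested and the added copies change the Eno1 value itself, and for the other alternatives the cause was not tested. Without the low-value filter the calls of Slc2a1, Slc2a3, Hk1, Pfkfb1, Eno3 and Ldha against iWAT and of Gapdh and Slc16a1 against eWAT were lost.

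Of the isoform shares (4) 6 passed with the copies added, 3 to 5 with 1 library left out, and 0 with labels permuted within replicate numbers. That test could pass a share only if 6 or more of the 9 had its smallest possible p, 0.0278, and 5 had it, so its 0 says nothing about stability. With the replicate number as a block in the fit of all depots, Pgk1 was called higher in BAT than in iWAT (18 genes) and no other call of the 27 genes changed. Fitted in single pairs of depots, the block removed the calls of Pfkfb1, Pfkfb3 and Ldha against iWAT and added those of Tpi1 and Ldha against eWAT. Estimated depths of 2.92 to 4.65 M reads limit the genes near 1 FPKM in iWAT, such as Slc2a3, Pfkfb4 and Slc16a3.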

Other observations

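Aldoa has relatives without introns whose identity is below the limit used for copies, and which are not among the 31 genes. Aldoart1, at 93.7% identity with the Aldoa coding sequence, followed Aldoa, with 16.7 to 20.5 FPKM in BAT, 0.474 to 2.93 in iWAT and 2.22 to 2.62 in eWAT. Aldoart2, at 91.6% identity over 88.1% of the length, ran the other way, at 65.2, 27.7 and 40.0 FPKM in BAT, 188, 504 and 334 in iWAT and 70.4, 284 and 232 in eWAT. The Aldoart2 values had the order of the epithelial sums within each depot, lowest in eWAT 1 among the eWAT libraries and highest in iWAT 2 among the iWAT libraries. The skeletal muscle marker Acta1 had the same order within each depot, so that the values do not set the 2 apart.

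Exons of 10 of the 31 genes overlap a gene on the opposite strand in GENCODE vM1. The overlap was 741 bases for Gpi1 (with Gm17327), 372 bases for Pfkp (with Pitrm1), 711 for Pklr (with Hcn3) and 831 for Slc16a3 (with Csnk1d), and less than 160 bases for the other 6. Without a known strand setting, reads from the 2 genes of such a pair cannot be told apart.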
